A study of Mus musculus with 4 samples.

Results

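A set of 7 genes that move chloride, potassium and water across secretory epithelium was followed in sorted mouse mammary tumor cells with and without radiation: the chloride channel family gene Clic6, the aquaporin genes Aqp5 and Aqp3, the cotransporter gene Slc12a2, the chloride channel genes Cftr and Ano1 and the potassium channel gene Kcnn4. They were found by gene name in a read count table of 54532 genes, and all 7 were present once. Clic6 was chosen because its difference between irradiated and unirradiated libraries was among the smallest p values (rank 26 of 15993 tested genes, and rank 8 among those that lay lower). The other 6 were added by function with results of the same comparison known, so the group differences of all 7, with their p-values and calls, are given as description and support nothing.

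Tumors came from MFP injection of PyMT-Dll1+ cells in the C57BL/6 strain, the cells being labelled MMTV-PyMT, which names the polyoma middle T antigen under the mammary tumor virus promoter. They carried an mCherry reporter of Dll1, a ligand of Notch receptors; how the reporter was built is not stated in the sources used here. The 2 unirradiated libraries are labelled control tumor without radiation, and the 2 irradiated libraries come from tumors with targeted radiation on day 30. Cells of all 4 libraries were first stained for CD45 (leukocytes), CD31 (endothelium) and TER119 (red cells), to enrich tumor cells, then sorted for mCherry, so every library is Dll1-positive and no Dll1-negative cells are compared here. Animals per library, their age and the radiation dose are not stated there either. Since no label ties the libraries to different animals, the p-values speak only of spread between libraries, possibly a technical one.

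Secretory epithelium drives fluid by moving chloride. The cotransporter NKCC1, encoded by Slc12a2, loads chloride into the cell with sodium and potassium from the basal side. Calcium-gated potassium exit through the channel KCa3.1, encoded by Kcnn4, keeps the cell electrically negative, chloride then leaves through the apical channels TMEM16A (Ano1, opened by calcium) or CFTR (opened by cAMP signaling), and water follows through aquaporins. Salivary and sweat glands use this route heavily, and mammary secretory cells share parts of it.

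The summed counts ran from 16811888 to 20817997 per library. The luminal markers Epcam, Krt8 and Krt18 were high in every library, at 1089 CPM or more for Epcam (counts scaled to library size, CPM, with trimmed mean of M values normalization, TMM). The libraries of a group were not equally alike: the biological coefficient of variation across genes was 5.93% in the unirradiated pair and 39.8% in the irradiated pair. Irradiated 2 stood apart by transcripts of other cells, those the stain named among them: Ptprc, which encodes CD45, was at 77.2 CPM there and 1.18 to 9.63 CPM elsewhere, and Pecam1, which encodes CD31, at 157.6 CPM and 4.95 to 9.48 CPM. Its summed CPM over 10 fibroblast and pericyte markers was 5826, against 605 to 798 in the other libraries. Over 10 endothelial markers it was 855 against 32.9 to 58.1, and over 12 macrophage markers 753 against 21.3 to 92.9. A gene lies above or below, in the counts given here, when both irradiated values are on that side of both unirradiated values. By this rule 12 of 12 macrophage genes lay above, 8 of 10 endothelial genes and 6 of 10 fibroblast and pericyte genes. Over all 15993 tested genes 20.3% lay above. Summed CPM over 12 lymphocyte markers was 5.25 to 19.4 in the other libraries and 119.6 in irradiated 2, over 7 neutrophil markers 5.25 to 11.3 and 96.6, over 6 red cell markers 2.02 to 5.85 and 35.1, over 7 adipocyte markers 10.4 to 10.6 and 121.4, and over 8 skeletal muscle markers 7.31 to 10.3 and 17.9. The summed CPM of 17 luminal markers was lowest in irradiated 2, at 16958 against 18452 in irradiated 1 and 21079 and 19612 in the unirradiated libraries. Csn3, the largest entry of this sum, was at 7108 and 6208 CPM without radiation and 4895 and 5194 CPM with it. Krt8, the next largest, overlapped at 3962 and 3842 against 4374 and 3323 CPM, so the sum does not stand for every luminal marker. The part of all these marker transcripts in the differences below was not tested, apart from the values without irradiated 2 and on an epithelial scale. In bulk libraries fewer cells of a type and less RNA per cell cannot be told apart.

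Of the 7 genes 5 were strongly expressed, 1 was low and 1 was at the edge of detection. Levels of different genes were compared as CPM per kb of deposited gene length. In unirradiated cells Aqp5, the apical water channel of salivary and other glands, was highest at 245.6 ± 8.58 CPM per kb (SD, n = 2), rank 166 of 15993 tested genes. Clic6 followed at 140.2 ± 1.75 CPM per kb, then Ano1 at 125.4 ± 4.17, Kcnn4 at 111.6 ± 1.76 and Slc12a2 at 52.7 ± 2.76 CPM per kb. All 5 lay above at least 94.9% of tested genes per kb. Aqp3, a water and glycerol channel of basolateral membranes, was at 1.43 ± 0.0613 CPM per kb, above 28.8% of tested genes. Cftr was at 0.0780 ± 0.0401 CPM per kb. The ranges of neighbours in this order did not overlap between the unirradiated libraries, and the smallest step, from Clic6 to Ano1, was 1.12-fold.

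In irradiated cells the order of these levels per kb differed in the middle. Aqp5 was again highest at 168.4 ± 9.59 CPM per kb, followed by Ano1 at 93.7 ± 15.05, Kcnn4 at 80.9 ± 1.62 and Clic6 at 80.6 ± 1.94 CPM per kb. Kcnn4 and Clic6 overlapped, so their order cannot be read, and Ano1 in irradiated 2, at 83.1 CPM per kb, lay close to both. Slc12a2 was at 54.2 ± 17.98 CPM per kb, Aqp3 at 3.45 ± 1.37 and Cftr at 0.0275 ± 0.0388 CPM per kb. The deposited length of Slc12a2, 6520 bases, is shorter than the 10920 exonic bases of the GENCODE M21 annotation. With the longer value Slc12a2 was at 31.5 and 32.4 CPM per kb in the unirradiated and irradiated groups, still the fifth. For the other 6 genes both lengths were equal.

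**Figure D1:**
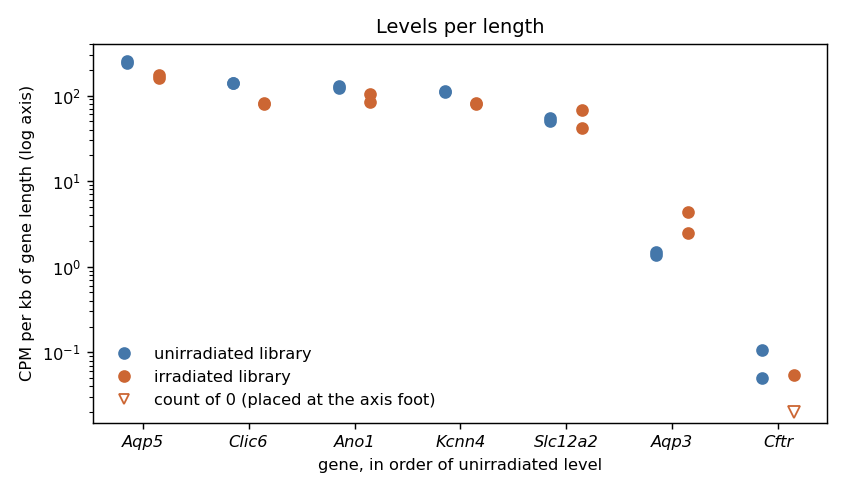
Level of each gene in each library, as CPM per kb of deposited gene length on a log axis, ordered by the unirradiated mean. Aqp5 lay highest in all 4 libraries, and Aqp3 and Cftr lay far below the other 5; the open triangle marks the count of 0 for Cftr in irradiated 1.

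The chloride loading step was read through Slc12a2 (ENSMUSG00000024597, mm10 chromosome 18, 57878678 to 57946821). Without radiation its level was 331.2 and 356.6 CPM, and with radiation 270.6 CPM (irradiated 1) and 436.4 CPM (irradiated 2). The irradiated libraries lay on opposite sides of the unirradiated pair, so the group means of 343.9 ± 17.97 and 353.5 ± 117 CPM (SD, n = 2 each) hide a difference between the irradiated libraries. Their gap of 0.69 on the log2 CPM scale was wider than that of 76.3% of tested genes, and the fitted log2 fold change was 0.04 (SE 0.25). Slc12a2 gave 74.9% to 81.1% of the summed CPM per kb of its 9-gene family in every library, with deposited lengths.

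Potassium exit was read through Kcnn4 (ENSMUSG00000054342, chromosome 7, 24370263 to 24386690). It was at 577.0 and 564.2 CPM without radiation and at 408.2 and 419.9 CPM with it. The groups did not overlap, and the irradiated mean of 414.1 ± 8.29 CPM differed by -27.4% from the unirradiated 570.6 ± 9.03 CPM (SD, n = 2 each). The fitted log2 fold change was -0.46 (SE 0.12). Kcnn4 libraries were close within each group: the irradiated values were 0.0408 apart on the log2 CPM scale, and 6.80% of tested genes had a smaller gap there. Kcnn4 gave 98.9% to 99.3% of the summed CPM per kb of the 4 Kcnn genes, so it was nearly the whole of its family's RNA in every library.

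Calcium-gated chloride exit was read through Ano1 (ENSMUSG00000031075, chromosome 7, 144588549 to 144751974). It had the most counts of all 7 genes: 764.3 and 801.1 CPM without radiation, then 651.6 CPM (irradiated 1) and 518.7 CPM (irradiated 2). Both irradiated libraries lay below, with differences of -0.26 and -0.59 on the log2 CPM scale, so its size rests on which library is taken. The group means were 782.7 ± 26.1 and 585.2 ± 94.0 CPM (SD, n = 2 each), with a fitted log2 fold change of -0.42 (SE 0.17). Among the 10 anoctamin genes Ano1 gave 76.7% and 77.9% of the summed CPM per kb without radiation and 70.6% and 70.1% with it. The next in the family, Ano8, gave 8.94% and 8.70% and then 13.1% and 11.7%.

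Chloride exit gated by cAMP was read through Cftr (ENSMUSG00000041301, chromosome 6, 18170687 to 18322768), which was nearly absent. Its counts were 8 and 14 without radiation, and 0 (irradiated 1) and 8 (irradiated 2) with it. The groups overlapped, and a count of 0 in irradiated 1 allows up to 3 counts, or 0.151 CPM. Cftr did not pass the filter on low counts, so 6 of the 7 genes were tested and no difference in Cftr was detectable at this depth. Its exons share 1.66% of their bases with the antisense gene Gm15592, which had 0 counts; no other gene of the 7 shares exonic bases with another gene in GENCODE M21.

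Clic6 (ENSMUSG00000022949, chromosome 16, 92485736 to 92541243) belongs to the chloride intracellular channel family, whose proteins exist in soluble and membrane forms. Its level was 553.7 and 544.0 CPM without radiation and 320.9 and 310.1 CPM with it. The groups did not overlap, and the irradiated mean of 315.5 ± 7.58 CPM differed by -42.5% from the unirradiated 548.9 ± 6.86 CPM (SD, n = 2 each), a fitted log2 fold change of -0.80 (SE 0.12). Its relatives did not show this pattern in their values. Clic1 was at 237.4 and 216.4 CPM without radiation and 206.3 and 254.4 CPM with it, and Clic4 at 373.0 and 369.9 against 408.2 and 393.1 CPM. The fitted log2 fold changes were 0.02 (SE 0.15) for Clic1 and 0.11 (SE 0.12) for Clic4. Clic6 gave 42.2% and 43.2% of the summed CPM per kb of the 5 Clic genes without radiation and 31.0% and 27.9% with it, while Clic1 gave 39.4% and 37.4% and then 43.4% and 49.8%. The leading Clic transcript per kb was thus Clic6 in both unirradiated libraries and Clic1 in both irradiated ones.

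Water passage was read through Aqp5 (ENSMUSG00000044217, chromosome 15, 99590782 to 99594829) and Aqp3 (ENSMUSG00000028435, chromosome 4, 41092722 to 41098183), which lay on opposite sides. Aqp5 was at 654.0 and 622.5 CPM without radiation and at 419.996 and 455.3 CPM with it. The groups did not overlap, and the irradiated mean of 437.6 ± 24.9 CPM differed by -31.4% from the unirradiated 638.3 ± 22.3 CPM (SD, n = 2 each), with a fitted log2 fold change of -0.54 (SE 0.13). Aqp3 rested on few counts, 56 and 43 without radiation and 160 and 85 with it. These gave 2.69 and 2.54 CPM against 8.07 and 4.53 CPM, a fitted log2 fold change of 1.27 (SE 0.40). Both irradiated libraries lay above for Aqp3, but they differed from each other by 0.82 on the log2 CPM scale, more than 80.3% of tested genes did.

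Aqp5 held most of the aquaporin RNA in every library, with the smallest share in irradiated 2. It gave 95.8%, 96.3% and 93.2% of the summed CPM per kb of 12 aquaporin genes in unirradiated 1, unirradiated 2 and irradiated 1. In irradiated 2 it gave 58.99%, while Aqp1, which endothelium and red cells also express, stood at 310.0 CPM there against 15.7 to 21.5 CPM in the other libraries. Aqp1 was highest in irradiated 2, as was the summed CPM of every list of non-epithelial markers given above. In irradiated 1 Aqp1 was at its lowest, while the endothelial and red cell sums there, 58.1 and 5.85 CPM, lay above both unirradiated libraries. The part of such cells in the level of Aqp1 was not tested. Aqp3 gave 0.561% and 0.558% of aquaporin RNA per kb without radiation and 2.55% and 0.834% with it.

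**Figure D2:**
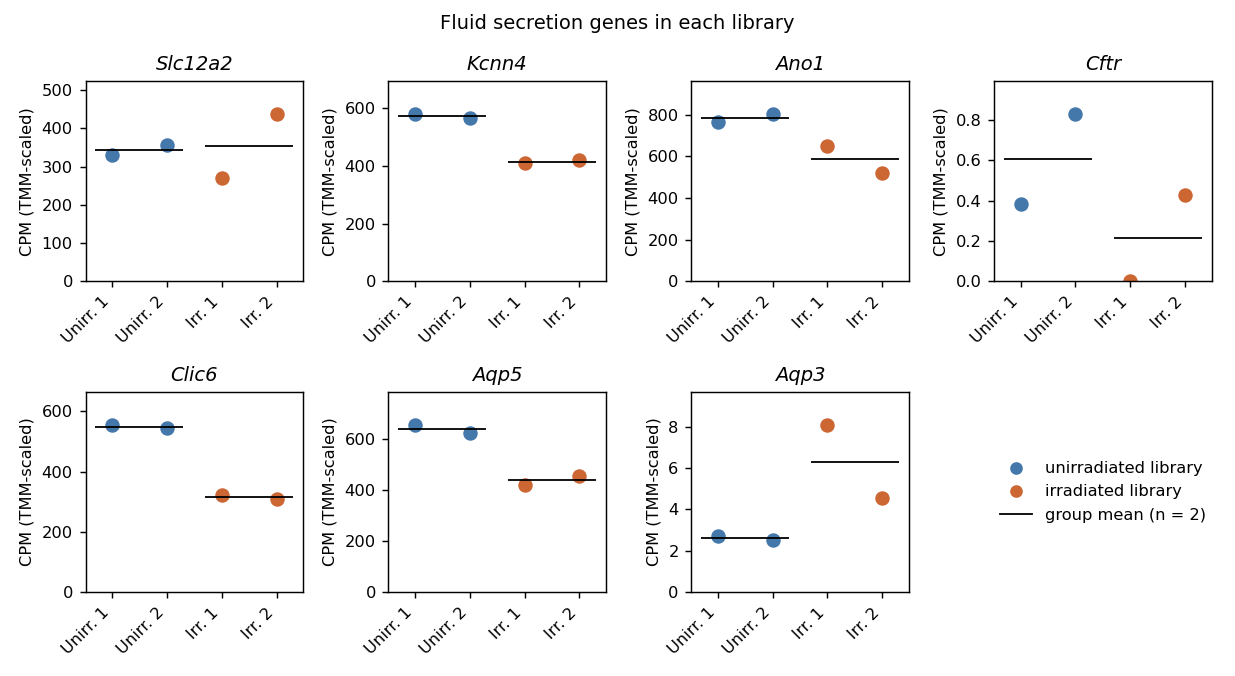
CPM of each gene in the 4 libraries, each panel with its own axis from 0; points are libraries and lines are group means (n = 2). Kcnn4, Ano1, Clic6 and Aqp5 lay lower in both irradiated libraries, Aqp3 higher, and Slc12a2 on both sides.

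**Figure D3:**
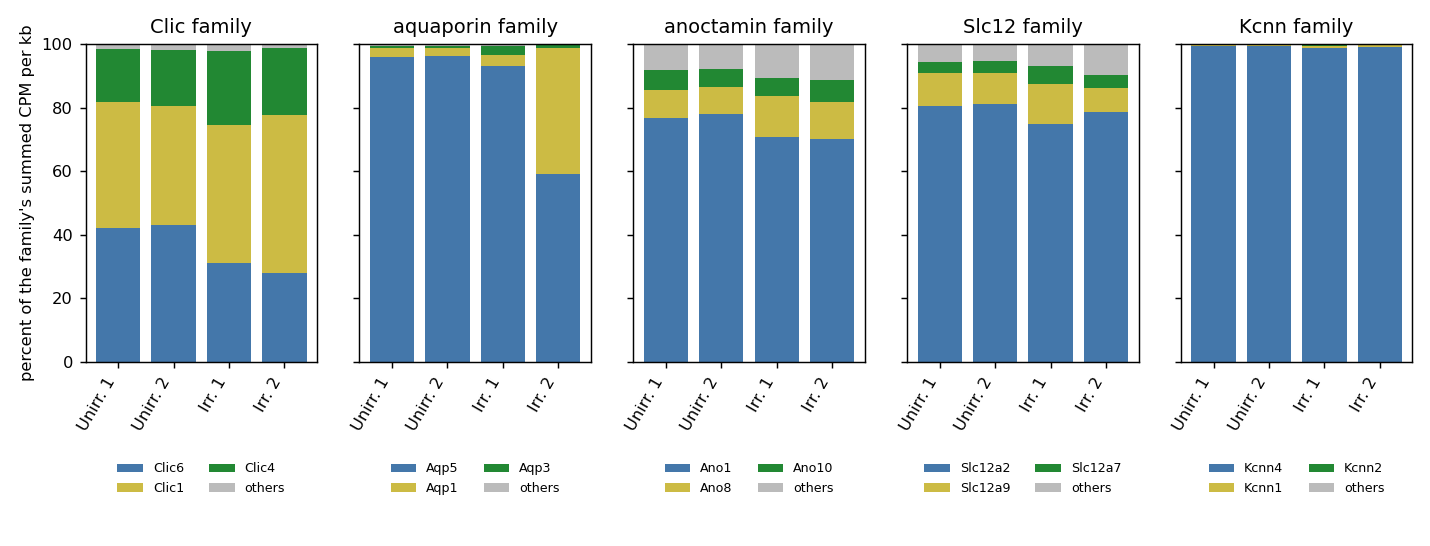
Share of each family's summed CPM per kb held by the 3 named genes and by all others, for 5 families and 4 libraries. Kcnn4 held at least 98.9% of its family throughout, the share of Clic6 was 42.2% and 43.2% without radiation and 31.0% and 27.9% with it, and Aqp1 took 39.7% of aquaporin RNA in irradiated 2.

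RefSeq promoter entries (GRCm38.p6, the assembly of mm10) were found for 5 of the 7 genes. The bases before the start of Kcnn4 and Ano1, which lay lower in both irradiated libraries, and of Aqp3, which lay higher, are shown 5′ to 3′ on each gene's strand, without annotated exons. For Ano1 the RefSeq entry uses an internal start, inside the gene span given above, so its window does not lie before the outermost start. Capitals mark matches, on either strand, to the GC box GGGCGG, the TATA box TATAAA, or the core TGGGAA of RBPJ, the factor through which Notch acts. The window of Kcnn4 is chr7:24370013-24370262 (plus strand), that of Ano1 chr7:144738593-144738823 (minus strand) and that of Aqp3 chr4:41098184-41098433 (minus strand).
Kcnn4: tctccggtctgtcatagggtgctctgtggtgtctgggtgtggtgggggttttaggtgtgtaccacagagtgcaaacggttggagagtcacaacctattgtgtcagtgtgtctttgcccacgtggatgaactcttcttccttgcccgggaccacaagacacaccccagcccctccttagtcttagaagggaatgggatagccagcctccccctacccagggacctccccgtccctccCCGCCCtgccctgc
Ano1: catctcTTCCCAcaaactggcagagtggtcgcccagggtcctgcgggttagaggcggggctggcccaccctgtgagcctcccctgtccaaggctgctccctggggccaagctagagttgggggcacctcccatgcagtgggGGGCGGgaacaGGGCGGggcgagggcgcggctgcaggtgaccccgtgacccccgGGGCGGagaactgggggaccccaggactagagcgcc
Aqp3: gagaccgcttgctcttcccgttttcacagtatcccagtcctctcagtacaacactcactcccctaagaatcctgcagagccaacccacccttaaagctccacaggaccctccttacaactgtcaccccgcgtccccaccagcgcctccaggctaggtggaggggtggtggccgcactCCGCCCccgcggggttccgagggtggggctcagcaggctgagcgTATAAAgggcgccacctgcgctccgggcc
Kcnn4 and Aqp3 had 1 GC box each and Ano1 had 3 in the stretch shown (1 more lies in annotated exon bases left out), and 32.7% of 32851 promoter windows of 250 bases hold at least 1. The TATA box of Aqp3 has a counterpart in 12.4% of windows, and the RBPJ core of Ano1 in 21.6%. Also searched, with no match in these windows, were CCAAT (33.85% of windows), the cAMP response half-site TGACG (17.8%), the STAT-type site TTCNNNGAA (7.02%) and the ETS core CCGGAA (12.03% of windows), whose last letters GGAA are also in the RBPJ core. The matches describe letters and show no binding. The GC content was 58.8% for Kcnn4, 71.0% for Ano1 and 64.0% for Aqp3, against a median of 52.4% over all windows.

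Side by side, 4 of the 6 tested genes lay below (Clic6, Aqp5, Kcnn4 and Ano1), 1 lay above (Aqp3) and the groups of 1 overlapped (Slc12a2). Over all 15993 tested genes 20.0% lay below and 20.3% above; the set was built around this comparison, so nothing is read from its excess. The median log2 fold change of the 6 was -0.44, against 0.00396 over all tested genes. With edgeR's quasi-likelihood test 0 of the 6 genes passed, as did 0% of all genes in each direction (1090 higher and 390 lower at an unadjusted p under 0.05). By edgeR the adjusted p over all genes was between 0.489 and 0.979 for the 6 genes. DESeq2 called Clic6, Aqp5 and Kcnn4 lower, where it called 0.331% of all genes lower and 2.66% higher, and limma-voom called 0 genes. With no filter on low counts edgeR called Clic6 alone of the 6 lower (4.86% of all genes higher, 0.381% lower), and with a replicate block 0 of the 6 (0.0125% higher, 0% lower).

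The agreement of the irradiated libraries differed between the genes. The log2 differences of irradiated 1 and irradiated 2 from the unirradiated mean were -0.77 and -0.82 for Clic6, -0.48 and -0.44 for Kcnn4 and -0.60 and -0.49 for Aqp5. They were -0.26 and -0.59 for Ano1, 1.59 and 0.77 for Aqp3, and -0.34 and 0.34 for Slc12a2. On this scale the irradiated libraries were closer for Clic6, Kcnn4 and Aqp5 than for Ano1, Aqp3 and Slc12a2. Both irradiated libraries had more macrophage and lymphocyte transcripts than the unirradiated ones, irradiated 2 by far the most, and their part was not tested. A fit without irradiated 1 called Clic6, Aqp5, Kcnn4 and Ano1 lower and Slc12a2 higher, where it called 15.9% of all genes higher and 7.95% lower. The fit without irradiated 2 called these 4 and Slc12a2 lower and Aqp3 higher, where it called 11.9% higher and 13.9% lower. Slc12a2 was thus on opposite sides in these fits, each of which has a single irradiated library and takes its spread from the unirradiated ones. By position alone 2 genes lay above and 4 below without irradiated 1 (40.3% and 39.4% of all genes), and 1 above and 5 below without irradiated 2 (41.1% and 42.7%). On a scale of 8 epithelial genes (Epcam, Krt8, Krt18, Krt19, Cdh1, Cldn3, Cldn4 and Cldn7), chosen after seeing the data, the same 4 genes lay below, where 9.52% of all genes did, and Aqp3 above, where 24.7% did. Their summed CPM was 11173 and 10707 without radiation, 11526 in irradiated 1 and 9355 in irradiated 2. Krt8 and Krt18 were the largest entries of this sum, and both were highest in irradiated 1 and lowest in irradiated 2. Of the others Epcam, Cldn4 and Cldn7 lay below and Krt19 above, so the scale follows mainly these 2 keratin genes. On that scale the irradiated mean differed by -39.2% for Clic6, -27.1% for Aqp5, -23.0% for Kcnn4 and -21.8% for Ano1. For Aqp3 it differed by 148% and for Slc12a2 by 11.4%. Relative to 1000 summed CPM of the epithelial genes Kcnn4 was at 51.6 and 52.7 without radiation, 35.4 in irradiated 1 and 44.9 in irradiated 2, and Aqp5 at 58.5 and 58.1, then 36.4 and 48.7. Clic6 was at 49.6 and 50.8, then 27.8 and 33.2, and Ano1 at 68.4 and 74.8, then 56.5 and 55.5. Aqp3 was at 0.241 and 0.237, then 0.700 and 0.484, and Slc12a2 at 29.6 and 33.3, then 23.5 and 46.7. Relative to the epithelial genes the irradiated libraries were thus closer for Ano1 than for Clic6, Kcnn4 and Aqp5. In CPM they were farther apart for Ano1 than for those genes. Aqp3 and Slc12a2 remained farther apart than Clic6, Kcnn4, Aqp5 and Ano1 on both scales. All 7 genes together took 0.288% and 0.292% of the counts without radiation and 0.207% and 0.213% with it.

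**Figure D4:**
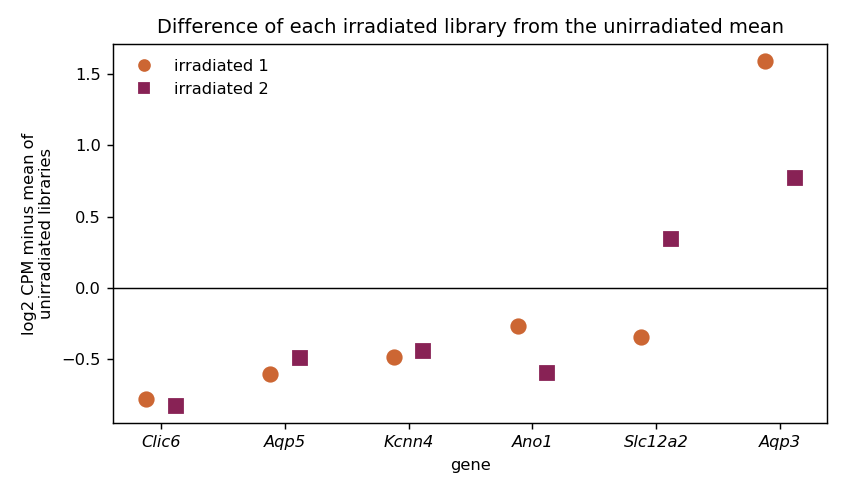
Difference of each irradiated library from the mean of the unirradiated libraries on the log2 CPM scale, for the 6 tested genes. Clic6, Aqp5 and Kcnn4 had closer values in the irradiated libraries than Ano1, Aqp3 and Slc12a2, and Slc12a2 had values on opposite sides, -0.34 and 0.34.

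Related transport genes were read in 8 lists, whose counts stand beside 20.3% above and 20.0% below over all tested genes. In none of them did edgeR call a gene. The calls of DESeq2 in these lists stand beside 2.66% higher and 0.331% lower over all tested genes. Of 27 other chloride channel genes 8 lay above and 5 below, with a median log2 fold change of 0.11. The calcium-activated family gene Clca3a2 was at 413.2 and 383.4 CPM against 382.1 and 363.1 CPM. The volume-regulated channel subunit gene Lrrc8c was at 4.84 and 20.1 CPM with radiation and 2.84 and 2.83 CPM without. Of 4 other aquaporin genes 1 lay above, Aqp9 at 2.72 and 2.88 against 2.21 and 1.89 CPM, and 1 below, Aqp2 at 0.454 and 0.267 against 0.770 and 1.18 CPM.

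Of 13 genes of other cotransporters and their kinases 4 lay above and 1 below (median 0.18). The gene below was Stk39, which encodes SPAK, the kinase that activates NKCC1, at 224.9 and 226.1 CPM against 284.3 and 273.3 CPM. The sister kinase gene Oxsr1 overlapped, at 58.0 and 53.1 against 49.1 and 60.7 CPM, and Slc12a3 lay above at 3.33 and 2.35 against 1.49 and 1.71 CPM. Of 11 sodium pump and FXYD genes 6 lay above and 2 below (median 0.56, with 0.20 in irradiated 1 and 0.63 in irradiated 2). The pump subunit gene Atp1b3 lay above at 85.5 and 107.3 against 81.2 and 76.4 CPM. Fxyd5 and Fxyd1, regulators of the pump, were highest in irradiated 2, at 56.6 and 4.59 CPM, with 8.47 and 1.26 CPM in the other irradiated library.

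Of 14 other potassium channel genes 2 lay above and 1 below (median -0.02). The background potassium channel genes Kcnk5 and Kcnk1 were most abundant. Kcnk5 was at 282.5 and 192.1 CPM with radiation and 266.7 and 263.1 CPM without, and Kcnk1 at 96.1 and 86.6 against 99.9 and 101.7 CPM. Kcnq1, a channel that carries secretory potassium current, lay above at 5.85 and 5.22 CPM against 3.27 and 2.95 CPM, as did Kcnmb1 at 1.82 and 1.49 CPM against 0.914 and 0.708 CPM.

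Of 23 bicarbonate and proton transport genes 8 lay below and 5 above (median -0.0890). The level of the proton pump subunit gene Atp6v1b1 was 419.8 and 366.6 against 548.0 and 556.4 CPM, and that of the scaffold gene Slc9a3r1, whose protein binds CFTR, was 350.3 and 289.3 against 364.9 and 357.9 CPM. Slc26a4, which encodes the chloride-bicarbonate exchanger pendrin, was at 1.11 and 2.51 CPM against 5.39 and 5.60 CPM. Slc4a11 lay above at 15.7 and 6.61 CPM against 5.15 and 6.25 CPM. DESeq2 called 2 genes of this list lower, Atp6v1b1 (adjusted p = 0.0299) and Car12, a membrane carbonic anhydrase gene (adjusted p = 0.00249), at 274.2 and 220.7 CPM against 412.7 and 409.1 CPM; Car12 was named after its values were seen.

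Genes of sodium uptake, the reverse flow, lay above in 1 and below in 3 of 9 (median -0.16). The channel subunit genes Scnn1b and Scnn1g lay below, at 8.12 and 11.5 against 13.6 and 12.5 CPM and at 0.958 and 0.693 against 1.40 and 1.65 CPM. Scnn1a, another subunit gene of the channel, overlapped at 14.6 and 26.9 against 23.7 and 22.9 CPM. It was named after its values were seen. Sgk1, a kinase gene that promotes channel activity, stood at 990.5 and 604.2 CPM with radiation and 671.6 and 643.8 CPM without, and Tsc22d3 lay above at 343.7 and 333.3 against 305.2 and 293.8 CPM. Of 32 receptor and messenger genes that trigger secretion 9 lay above and 7 below (median 0.01). Prkar1a and Plcb3, the most abundant per kb, overlapped. For the adenosine receptor gene Adora2a the level was 3.28 and 4.74 against 0.433 and 0.767 CPM, and for the cyclase gene Adcy4 1.87 and 31.9 against 1.203 and 0.826 CPM. DESeq2 called Adora2a (adjusted p = 0.0103) and Gnas (0.0206) of this list higher, and of the sodium pump list Fxyd3 lower (0.0362); Gnas and Fxyd3 were named after their values were seen.

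**Figure D5:**
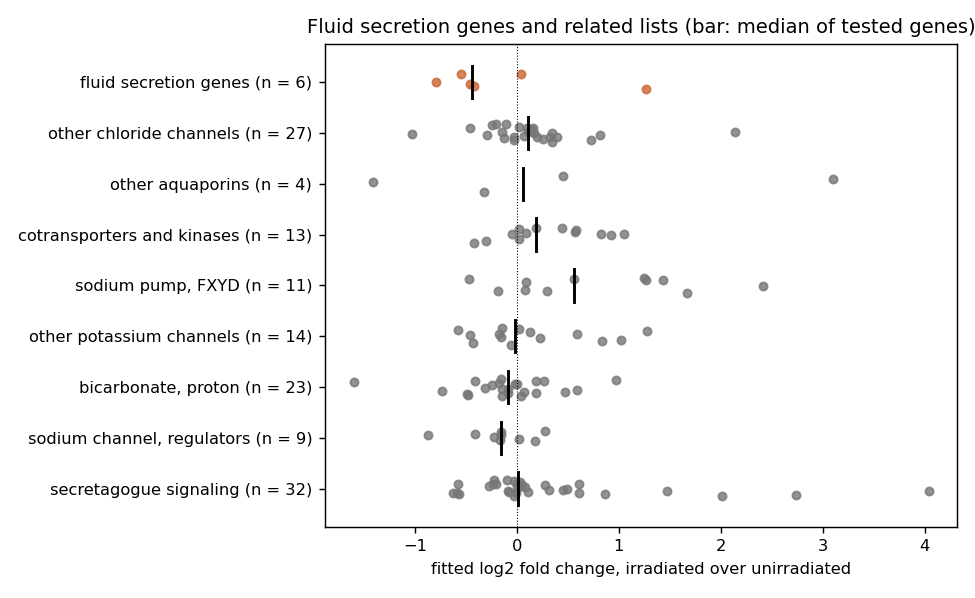
Fitted log2 fold change of each tested gene, irradiated over unirradiated, for the fluid secretion genes and 8 related lists; points are genes, black bars are medians. The median was -0.44 for the fluid secretion genes, which were chosen on this comparison, and lay between -0.16 and 0.56 for the other lists.

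Aqp5, Ano1, Slc12a2 and Kcnn4 are also known from salivary acinar cells, so salivary secretory markers were read as well, 19 of the 20 listed being in the table. Of 13 tested markers 7 lay above and 5 below, where 20.3% and 20.0% of all genes did, with a median log2 fold change of 1.92. DESeq2 called 6 of them higher, the secreted protein genes Amy1 (salivary amylase), Bpifa2, Chia1, Smr3a, Dcpp1 and Dcpp3, and 3 lower, Car6, Bhlha15 and Pigr, where it called 2.66% and 0.331% of all genes; the 6 were named after their values were seen. The 3 most abundant per kb in unirradiated cells lay below: Car6, a secreted carbonic anhydrase gene, was at 19.1 and 54.8 against 111.6 and 91.0 CPM. Bhlha15, a transcription factor gene of secretory cells, was at 34.9 and 47.98 against 76.5 and 71.9 CPM, and Pigr, the immunoglobulin transporter gene, at 107.5 and 112.4 CPM against 147.9 and 151.3 CPM. Among those called higher, Dcpp1 was at 67.5 and 335.2 against 8.71 and 7.96 CPM. Bpifa2 was at 61.5 and 182.5 against 3.75 and 6.37 CPM, and Amy1 at 23.4 and 54.5 against 3.18 and 3.60 CPM. Over the 13 tested markers the median log2 difference from the unirradiated mean was 1.77 in irradiated 1 and 1.78 in irradiated 2. The summed level of the list was 363.8 and 347.0 CPM without radiation, 332.9 in irradiated 1 and 843.6 in irradiated 2. In irradiated 2 Slc12a2 was also highest of the 4 libraries, while Aqp5, Ano1 and Kcnn4 lay below both unirradiated libraries. The part of such transcripts in the 7 genes was not tested. Of 10 basal and myoepithelial markers 2 lay above and 3 below, and of 17 luminal markers 1 above and 8 below, against the same shares of all genes. Of the most abundant luminal markers per kb, Csn3 lay below, and Krt8 and Krt18 overlapped. Epcam also lay below, at 1291 and 1089 against 1447 and 1403 CPM, and the luminal marker above was Krt19. The basal keratin genes Krt14 and Krt17 were highest in irradiated 1, at 228.2 and 133.5 CPM. In the other 3 libraries Krt14 was between 107.9 and 120.4 CPM and Krt17 between 55.3 and 66.6 CPM. Acta2, the most abundant basal and myoepithelial marker per kb in unirradiated cells, overlapped at 136.9 and 150.6 against 141.9 and 132.6 CPM. The 3 basal and myoepithelial markers below were Cnn1, Myh11 and Oxtr, and the 2 above Krt5 and Tagln, all named after their values were seen. Cnn1 was at 15.8 and 23.6 against 27.8 and 27.2 CPM, and Krt5 at 149.1 and 66.8 against 60.8 and 61.0 CPM.

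Genes with the most similar pattern were taken from 12848 genes by the Euclidean distance of centred log2 CPM over the 4 libraries. Genes with predicted symbols, such as Gm or Rik names, were passed over. For Clic6 they were Fzd9, Smoc1 and Sidt1, at distances of 0.0446, 0.0517 and 0.0863. Smoc1, for example, was at 176.0 and 170.0 CPM without radiation and 99.3 and 100.6 CPM with it. For Aqp5 they were Ddo, Prkar2b and B9d1 (0.0400 to 0.0529), and for Kcnn4 Sirt3, Acss1 and Vps53 (0.0312 to 0.0467). Prkar2b, a regulatory subunit gene of the cAMP-dependent kinase that is also on the list of secretion triggers, was at 39.0 and 36.6 CPM against 24.8 and 26.0 CPM. For Ano1 the nearest were Prkca, Sntb1 and Inpp5j (0.0375 to 0.0425), and for Slc12a2 Ctnnbl1, Tubg1 and Timm10b (0.0206 to 0.0472). Aqp3 had no gene as close outside the predicted symbols: Otud7a, Foxq1 and Lgals3 lay at 0.143, 0.145 and 0.189. With 4 libraries many genes share a pattern, so these distances are descriptions only.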

How the data were processed

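Poly(A) RNA of 4 libraries was read from 1 table of raw counts per gene that the authors deposited, with gene lengths in bases; the 3 single-library tables held identical counts at all 54532 genes. Per the labels' protocols the kit was not directional, so reads carry no strand. STAR 2.5, HTSeq 0.6.1, DESeq2 and mm10 were used per the submitters' processing notes; how HTSeq was set is not stated in the sources used here.

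Groups come from the sample titles. Counts were analysed in R 4.3.3 with edgeR 4.0.16: filterByExpr (minimum count 10, minimum total 15) left 15993 genes, scaled by TMM and tested with the two-sided quasi-likelihood test, Benjamini-Hochberg adjusted over all of them at 0.05. Each standard error is the absolute log2 fold change over the square root of the F statistic. Log2 CPM used a prior count of 2. DESeq2 1.42.0 ran on the same genes, and limma 3.58.1 gave limma-voom. A gene lies above or below when both irradiated libraries are on that side of both unirradiated ones. Exact permutation of 2 against 2 libraries was not used.

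The 7 genes and all lists were chosen with earlier results of these data known. From each transport list the text names the 2 most abundant genes per kb and up to 2 others with the largest fold change among those above or below, and from each salivary, basal or luminal list those most abundant. Among luminal markers the epithelial scale names genes outside this rule, Epcam and Krt19 among them. A few genes that this rule names are not reported here. Alternatives were 3 other scalings, 2 other filters, a replicate block, each library left out, a threshold of 0.1, DESeq2 and limma-voom. The steps were tested on simulated data.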

Additional observations from a re-analysis of the deposited data

How the results depend on the processing

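The 3 other scalings (DESeq2 size factors, upper quartile, library size alone) moved the level of each gene by -2.11% to 0.65% and kept 4 genes below and 1 above. Without irradiated 1, 2 genes lay above, since Slc12a2 joined Aqp3 (40.3% of all genes lay above there).

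Genes called over the whole table depended on the fit. With no filter edgeR called 1338 higher and 105 lower, Clic6 among them (log2 fold change -0.81). DESeq2 called 425 higher and 53 lower, with log2 fold changes of -0.79 for Clic6, -0.54 for Aqp5 and -0.46 for Kcnn4. Leaving out 1 library at a time gave 0 to 2713 genes higher (2713 without irradiated 1, 2022 without irradiated 2) and 0 to 2355 lower (1354 and 2355). The lone irradiated library was assumed to vary like the unirradiated pair. The log2 fold changes then ran from -0.84 to -0.79 for Clic6, -0.62 to -0.50 for Aqp5, -0.50 to -0.45 for Kcnn4, -0.61 to -0.28 for Ano1, 0.77 to 1.61 for Aqp3 and -0.36 to 0.33 for Slc12a2. Slc12a2 turned negative without irradiated 2 (-0.36) and without unirradiated 1 (-0.022). The cause was not tested.

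The replicate numbers are shared by the groups, but no label says that they pair libraries. Across 13188 genes deviations of same-numbered libraries correlated at -0.15. A replicate block called 2 genes higher and 0 lower, with log2 fold changes between -0.80 for Clic6 and 1.21 for Aqp3. With the numbers crossed, added after seeing the data, the replicate block called 0 genes each way. Depth limits Cftr, at 0 to 14 counts per library, and Aqp3, at 43 to 160.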
